A study of Mus musculus with 5 samples.

Results

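The ZFP-named zinc-finger genes are the genes of a mouse CRISPR library whose symbol is ZFP followed by a number, with Zfp131, Zfp42, Zfp143, Zfp281 and Zfp706 set aside. The rule uses names and no measured value, but the members were chosen with earlier results of these data known. The rule found 1510 of the 17820 guide RNAs, which are 10 guides for each of 151 of the library's 1682 genes (8.98% of the genes). All 151 symbols matched a protein-coding gene in the RefSeq table of GRCm38.p6, the mm10 build, and 39 of them lie on chromosome 7. The guides were counted in genomic DNA of mouse embryonic stem (ES) cells with the genotype label Ainv15(iNgn2 Tubb3::GFP), taken 5, 8 and 12 days after lentiviral transduction per the sample titles and kept under Zeocin in ES cell medium; the treatment label reads No treatment. There was 1 library at each of these days and 2 libraries of the plasmid pool made before it entered cells, which carry the ES cell labels although their titles name a plasmid preparation. Titles give the days since transduction, whereas by the treatment protocol day 5 is counted from selection. How Cas9 was supplied is not given in the sources used here, nor is it stated that the cell samples were drawn from separate cultures. Guide counts carry no expression, so the ES cell label could not be set against marker genes.

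In a pooled screen each cell carries a guide that directs Cas9 to cut 1 gene, so the share of reads on a guide follows the number of cells that carry it. Most mouse genes with ZFP names encode proteins with C2H2 zinc fingers, small folds held by a zinc ion that read DNA sequence. Many of them also carry a KRAB domain, which recruits the corepressor TRIM28 and the histone methyltransferase SETDB1 to silence retroelements and imprinted regions. KRAB zinc-finger genes are among the most rapidly duplicated genes of mammals and lie in tandem clusters. Others bear the name for a different fold, such as the Zfp36 family, which has CCCH fingers and binds AU-rich messenger RNA to speed its decay. Protein domains were not analysed here, so the roles given below are background.

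The guides shown first are all those kept for Zfp207 and Zfp638, the lowest members after Zfp407, together with single guides of other members whose values are described below. Each is 20 bases, written 5′ to 3′, numbered within its gene from the lowest change at day 12, with the 12 bases nearest to the protospacer adjacent motif (PAM, the NGG that Cas9 needs beside its target) in capitals. The orientation was read from the library: all 23 guides of any gene found in the RefSeq promoter window of their own gene were followed there by NGG. No sequence of Zfp407, the lowest member, is shown.
Zfp207 guide 1: ataatttcTTATGACAAATA
Zfp207 guide 2: tgtcataaGAAATTATACAC
Zfp207 guide 3: aagaaattATACACAGGACC
Zfp207 guide 4: atgcaatgAATTGCTAAACC
Zfp207 guide 5: ctgcatctATGGTTTCTTTA
Zfp207 guide 6: cagcctgtTCAACCTCAGCA
Zfp207 guide 7: ggtgggatATAACCTTGCTG
Zfp207 guide 8: agaagaagCAGCTCAAGCCG
Zfp638 guide 1: aaggtaaaTTAGGTAATCGG
Zfp638 guide 2: ccgacagcTCTCAATGTGGG
Zfp638 guide 3: actgccgaCAGCTCTCAATG
Zfp638 guide 4: ccatgttcTGATAAGATCCG
Zfp638 guide 5: ttgagagcTGTCGGCAGTTA
Zfp638 guide 6: aggatctcAGGATTCCAATC
Zfp292 guide 1: gatcacttACAAATGCACTG
Zfp292 guide 10: gatctgtaACTTAGAGTCAG
Zfp296 guide 1: ccggaagaCTTAGAACTCAG
Zfp296 guide 2: tgtcggtaTCGGGATCTACG
Zfp296 guide 5: gtatcgggATCTACGCGGCG
Zfp296 guide 9: taaagccgGACCTCGACTTG
Zfp384 guide 1: tgttacccAGAATATCACAG
Zfp384 guide 9: ggcagggaCAGTTAGCAAAG
Zfp606 guide 1: gaggacggAAGAAAGACAGG
Zfp454 guide 1: gcagatcgAGGACCCAAGTG
Zfp454 guide 9: actcatccTTTGCACGCCAT
Zfp366 guide 9: ccacatgaTGCAGCACAGCG
Zfp36l2 guide 9: ttcccgggCGCCCCTAACGG

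Of the 1510 guides, 1291 had at least 30 reads in both plasmid libraries and were kept, 5 to 10 per gene, so all 151 members were tested. For a kept member guide the median depth was 178 reads in plasmid library 1, 67 in plasmid library 2 and 47 to 53 in the cells. Plasmid library 1 was the deepest with 3541896 reads, plasmid library 2 had 1350234, and the cell libraries had 1008492 to 1082489. The 14 guides with no reads in either plasmid library had 0 reads in the cells too. Members held 8.43% and 8.30% of all reads in the plasmid libraries and 8.18% to 8.20% in the cells. Counts were scaled to the library total (CPM) with TMM factors, which set the typical guide of the library to no change. A guide's change is the log2 ratio of its CPM plus 1 to the mean plasmid CPM plus 1, a scale that understates the change of guides with few reads, and a gene's change is the median over its guides, with the SD over those guides. With 1 library per day these changes carry no test. The test was the slope per day across all 5 libraries on the reads summed per gene, in edgeR's quasi-likelihood test with Benjamini-Hochberg adjustment over the 1682 genes and a threshold of 0.05. It has 3 residual degrees of freedom and compares these libraries, not replicate cultures.

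Most ZFP-named genes stayed close to the typical guide of the library. Guides to 23 of the 151 members fell over the days and guides to 34 were called higher, and 94 passed in neither direction. That is 15.2% lower, where the background over all genes was 25.2%, and 22.5% higher, where the background was 34.7%. The 1000 non-targeting control guides, which match no gene, moved above the typical guide: the 893 that were kept had median changes of 0.41, 0.54 and 0.58 at the successive days. With libraries scaled on these controls, edgeR called 112 members lower (74.2%, background 64.6%) and 0 higher (background 1.13%). With a GC correction added to that scaling 102 were lower (67.5%, background 68.3%) and 0 higher (background 1.01%). All 23 members that fell on the first scale also fell on this one, while of the 34 called higher 27 passed in neither direction and 7 were called lower. A call upward therefore means higher than the typical guide to a gene and not higher than a control. The counts also hung on single libraries: without plasmid library 1 edgeR called 10 members lower (6.62%, all genes 19.4%) and 19 higher (12.6%, all genes 24%). Without plasmid library 2 it called 16 lower (10.6%, all genes 21.2%) and 20 higher (13.2%, all genes 23.9%). Without day 12 it called 30 lower (19.9%, all genes 26.3%) and 19 higher (12.6%, all genes 27.7%).

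Sets of non-targeting guides were passed through the same test to show what it calls where no gene is cut. Of 100 sets of 10 designed control guides, taken in library order, 93 were called higher and 0 lower with TMM scaling. In that fit 25.4% of all genes were called lower and 34.7% higher. With scaling on the controls 10 sets were called higher and 9 lower, beside 65.2% of all genes lower and 1.13% higher. In that fit the same control guides set the scale, so the sets are centred near no change by the scaling itself. These sets were added after the data had been seen.

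The typical member changed by -0.05 at days 5 and 8 and by -0.07 at day 12 (medians over 151 members), and the typical gene of the whole library by 0.01 at each of these days. At day 12 the quartiles of the members were -0.30 and 0.16 and those of all genes -0.47 and 0.30. The lowest member stood at -2.73 and the next at -1.65, while the lowest gene of the library stood at -4.83. A median loss of at least 1 log2 unit was reached by 2 members at day 5 (1.32%, background 6.3%), by 4 at day 8 (2.65%, background 12.1%) and by 4 at day 12, which is 2.65% beside a background of 15.8%. A gain of that size was reached by 0 members at days 5 and 8 (background 0.0595% and 0.178%) and by 1, Zfp366, at day 12, which is 0.662% beside a background of 1.19%. Without plasmid library 1, and likewise without plasmid library 2, Zfp366 no longer reached it. Between day 5 and day 12 the loss was reached by 1 member, Zfp407 (0.662%, background 7.02%), and the gain by 0 (background 0.832%). With a minimum of 100 plasmid reads per guide 11 members were past the loss at day 12. That setting left fewer guides, with none to Zfp207 or Zfp217, and no share over all genes is given for it.

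Zfp407, a large zinc-finger protein linked to gene control in fat cells, had the lowest median of the members at days 5, 8 and 12. Its 8 guides together held 654 and 551 CPM in the plasmid libraries and 392, 274 and 254 CPM at days 5, 8 and 12. Both plasmid libraries were above all 3 cell libraries, and the level dropped at each later day. Its median change went from -1.32 at day 5 to -2.43 at day 8 and -2.73 at day 12 (SD 1.64, 7 of 8 guides below 0), leaving 15.1% of the plasmid level. The slope amounted to -1.37 on the log2 scale over 12 days (edgeR adjusted p = 0.000225). One guide accounted for most of the reads that were left: guide 8 held 131 and 109 CPM in the plasmid libraries and 203, 170 and 157 CPM at days 5, 8 and 12, above the plasmid level at every day. The other 7 guides were called lower on their own. Guide 1 had no reads at day 12, which with a floor of 3 reads is at least 7.49-fold lower than in the plasmid pool.

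Zfp207 (chromosome 11, 80383279 to 80408561), also called BuGZ, binds microtubules and carries the checkpoint protein BUB3 to kinetochores in mitosis. All 8 kept guides were below 0 at day 12. Their summed level was 358 and 283 CPM in the plasmid libraries and 120, 94.5 and 107 CPM at days 5, 8 and 12, so the loss was reached by day 5 and the 3 cell libraries did not drop in order. The median change was -1.27, -1.86 and -1.65 (SD 0.95 at day 12), or 31.9% of the plasmid level, with a slope of -1.89 over 12 days (edgeR adjusted p = 0.00245). Guides 1, 2 and 3, which share at least 12 bases of target with a neighbour in this group, were the lowest at -2.96, -2.67 and -2.23 and so report on 1 site. Guide 8 held 36.7 and 34.4 CPM in the plasmid libraries, 10.6 and 6.68 CPM at days 5 and 8 and 28.3 CPM at day 12, the single guide of this gene that came back near its plasmid level. The mean guide of Zfp207 had 7.62 G or C bases, fewer than the 10.3 of the mean member guide, and the call was kept after GC correction (slope -1.43, edgeR adjusted p = 0.00639).

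Zfp638 (chromosome 6, 83867068 to 83986871), a nucleic acid-binding protein that helps to silence unintegrated retroviral DNA together with the HUSH complex, lost all 6 kept guides step by step. The summed level was 332 and 295 CPM in the plasmid libraries, then 207, 151 and 126 CPM. Its median change was -0.80, -1.20 and -1.40 (SD 1.45), with a slope of -1.38 over 12 days (edgeR adjusted p = 0.000878). Guide 1 went from 161 and 53 reads in the plasmid libraries to 12, 6 and 1 reads. Guides 2, 3 and 5 overlap on 1 site, on both strands, and ended at -3.11, -1.67 and -1.03, so guides with overlapping targets differed by up to 2.08 log2 units.

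Zfp292 (chromosome 4, 34803110 to 34882983), a large zinc-finger protein known from growth hormone gene control, was lost late. The median change was -0.12 at days 5 and 8 and -1.03 at day 12 (SD 1.26, 9 of 10 guides below 0). The summed level held at 553 and 508 CPM in the plasmid libraries and 437 and 512 CPM at days 5 and 8, then stood at 335 CPM, the only cell library well under the others. Guide 10 went the other way, from 51.4 and 32.9 CPM in the plasmid libraries to 56.9, 121 and 140 CPM, and ended at 1.70 where the other 9 lay between -2.74 and -0.39. The slope of the summed reads, -0.51 over 12 days (edgeR adjusted p = 0.0298), contains that guide. The call was lost without plasmid library 1 (adjusted p = 0.115), without the day 12 library (0.346), after GC correction (0.132) and with cells set against plasmid in place of the slope (0.187).

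Zfp296 (chromosome 7, 19577287 to 19580656) encodes a protein expressed in pluripotent cells and used as a reprogramming cofactor. By its median it fell mostly after day 5, though its summed level was already below both plasmid libraries at day 5. Its summed level was 663 and 647 CPM in the plasmid libraries and 571, 398 and 363 CPM in the cells. The median change was -0.06, -0.42 and -0.49 (SD 1.40, 7 of 9 guides below 0) and the slope was -0.90 (edgeR adjusted p = 0.000468). The call was lost with cells set against plasmid (adjusted p = 0.053) and kept in the other 11 alternatives. Guides 1 and 2 led the loss and were already lower at day 5. Guide 1 held 145 and 139 CPM in the plasmid libraries and 50.1, 33.4 and 14.2 CPM at days 5, 8 and 12. Guide 2 held 114 and 115 CPM and then 66.5, 47.7 and 16.3 CPM. Guide 5, which overlaps guide 2 on the same strand, ended at -0.49 against -2.73 for guide 2, while guide 9 ended at 0.77. The 9 guides of Zfp296 thus spread from -3.24 to 0.77, with guides 3 and 4 in between at -1.42 and -0.80. From day 5 to day 12 the median change was -0.83, after Zfp407 (-1.12) and Zfp292 (-0.90) the lowest of the members.

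Zfp384 (chromosome 6, 125009017 to 125037870), a nuclear matrix protein that binds A-rich DNA, fell early and then stayed level. It held 701 and 677 CPM in the plasmid libraries and 428, 438 and 420 CPM at days 5, 8 and 12, with no overlap between plasmid and cells. The median change was -0.90, -1.02 and -0.91 (SD 0.99, 8 of 10 guides below 0) and the slope was -0.80 (edgeR adjusted p = 0.00242). Guide 1 fell from 111 and 102 CPM to 29.9, 37.2 and 16.3 CPM, while guide 9, the most abundant, went from 173 and 166 CPM to 164, 158 and 193 CPM.

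Zfp217 (chromosome 2, 170108643 to 170151677), an oncogene product that in ES cells binds the RNA methyltransferase METTL3, had a level of 494 and 499 CPM in the plasmid libraries and of 355, 293 and 323 CPM in the cells. All 3 cell libraries lay below both plasmid libraries. Its median change at day 12 was -0.58 (SD 0.93, 9 of 10 guides below 0; slope -0.75, edgeR adjusted p = 0.00566). Zfp715 (-0.80, 8 of 8 guides below 0; adjusted p = 0.00048) and Zfp212 (-0.55, 6 of 7 guides below 0; adjusted p = 0.0016) also fell in edgeR's test. Zfp407, Zfp207, Zfp638, Zfp384, Zfp715, Zfp217 and Zfp212 were the 7 members that fell under each of the 11 or 12 other settings in which they could be tested, with a highest adjusted p of 0.0414. Guides to Zfp786 (-0.63), Zfp426 (-0.59), Zfp62 (-0.57) and Zfp592 (-0.57) fell as well, in calls that did not hold everywhere. Without plasmid library 1 the edgeR adjusted p was 0.135 for Zfp786, 0.133 for Zfp426, 0.137 for Zfp62 and 0.117 for Zfp592. Without plasmid library 2 it was 0.141 for Zfp426, 0.168 for Zfp62 and 0.0867 for Zfp592. Without the day 8 library it was 0.0574 for Zfp426 and 0.05 for Zfp62, and without the day 12 library 0.229 for Zfp426. After GC correction it was 0.798 for Zfp426 and 0.458 for Zfp62. With a minimum of 100 plasmid reads it was 0.637 for Zfp62, and the slope of Zfp426 turned to 0.043 (0.832). Zfp426 was called lower in 4 of 12 other settings, being lost also with no minimum of plasmid reads (0.0703) and with cells set against plasmid (0.137), and Zfp62 in 7 of 12. Of the remaining members that fell, Zfp334 (-0.55), Zfp418 (-0.49), Zfp213 (-0.43), Zfp182 (-0.41), Zfp446 (-0.35), Zfp273 (-0.34), Zfp354b (-0.29) and Zfp287 (-0.15) are named so that all 23 are accounted for, along with Zfp335 and Zfp606 below. Without plasmid library 1 only Zfp446 of these 8 was still called lower; the calls on Zfp213, Zfp287 and Zfp446 were lost without plasmid library 2 and those on Zfp213, Zfp273 and Zfp287 without day 8. After GC correction the calls on Zfp418 and Zfp446 were kept, and the edgeR adjusted p of the other 6 was 0.0596 (Zfp334) to 0.882 (Zfp354b), with the slope of Zfp273 at 0.07.

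On the upper side 0 members rose against the control guides (edgeR, background 1.13%). The highest median at day 12 was that of Zfp366 (chromosome 13, 99184823 to 99247032), a corepressor known from dendritic cells, at 1.01 (SD 0.71, 7 of 9 guides above 0). Its summed level was 631 and 633 CPM in the plasmid libraries and 844, 821 and 985 CPM in the cells, all above the plasmid. The slope of 0.63 (edgeR adjusted p = 0.00113) turned to -0.03 with scaling on the controls (adjusted p = 0.828) and to -0.21 with a minimum of 100 plasmid reads (adjusted p = 0.269). Guide 9 held 65.2 and 65.9 CPM in the plasmid libraries and 95.4, 131 and 221 CPM in the cells, the highest of the gene. Zfp689 had the steepest slope among the named members, 0.86 (edgeR adjusted p = 0.000166), and a median of 0.76 (7 of 8 guides above 0). Scaled on the controls its slope was 0.20 (adjusted p = 0.249). Its level was 583 and 639 CPM in the plasmid libraries and 733, 878 and 1120.5 CPM in the cells, each day above the one before.

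The rest of the upper group were Zfp239 (0.73), Zfp219 (0.72), Zfp275 (0.69), Zfp142 (0.63), Zfp319 (0.55) and Zfp36l2 (0.54), called higher on the TMM scale. Scaled on the controls, the slopes of Zfp239, Zfp219, Zfp142 and Zfp319 turned below 0 and those of Zfp275 and Zfp36l2 were 0.01 and 0.07, with edgeR adjusted p of 0.525 to 0.985 for the 6 genes. At day 12, 6 of 151 members had a median above that of the control guides (0.58), as did 105 of all 1682 genes. In 5 of the 34 members called higher the median over guides was below 0: Zfp286 (-0.17), Zfp707 (-0.11), Zfp174 (-0.03), Zfp408 (-0.02) and Zfp157 (-0.02). In the test abundant guides weigh more, since it uses summed reads, and in the median each guide counts once.

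Grouped by known role, the members linked to pluripotent cells included several that fell. Of the 6 members of that list (Zfp57, Zfp207, Zfp217, Zfp296, Zfp462 and Zfp292) guides to 4 fell and to 0 were called higher, where 25.2% of all genes fell and 34.7% were called higher. The median of the list at day 12 was -0.53, beside 0.01 over all genes. Zfp57, which protects methylation of imprinted regions, was at -0.22 (edgeR adjusted p = 0.914), with a level of 665 and 642 CPM in the plasmid libraries and 640, 641 and 655 CPM in the cells. Zfp462 was at 0.18 (adjusted p = 0.141). Both were called lower when scaled on the controls (adjusted p = 0.00272 and 0.0122). Like the other lists, this one was written with earlier results of these data known, and its members were not tested as a set.

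Of the 7 members of broadly required or general complexes, guides to 4 fell and to 0 were called higher (all genes 25.2% and 34.7%), with a median of -0.26. Zfp207, which is also counted in the list linked to pluripotent cells, and Zfp407 are described above. Zfp592, a partner of the chromatin reader ZMYND8, was at -0.57 (8 of 9 guides below 0; edgeR adjusted p = 0.0171). Zfp335, a component of a histone H3 lysine methyltransferase complex whose human counterpart is mutated in microcephaly, was at -0.20 (5 of 9 guides below 0; edgeR adjusted p = 0.0252), and its call was lost without plasmid library 1 (adjusted p = 0.0539), plasmid library 2 (0.157) or day 8 (0.0675). The members Zfp410 and Zfp326 are given after their values were seen, to complete the list. Zfp410, a direct activator of the Chd4 gene, was at -0.26 (edgeR adjusted p = 0.342). Zfp326, which acts with RNA polymerase II on splicing, was at -0.12 (adjusted p = 0.97), and Zfp148, a GC-box-binding factor, was at -0.02 (adjusted p = 0.415). When scaled on the controls all 7 members of this list were called lower, as were 64.6% of all genes. The edgeR adjusted p was then 0.00385 for Zfp410, 0.0359 for Zfp326 and 0.0145 for Zfp148.

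The 3 RNA-binding CCCH members were called higher on the TMM scale, as were 34.7% of all genes, and none of the 3 passed when scaled on the controls, where the slope of Zfp36 turned to -0.36. Zfp36l2 had all 9 guides above 0 at day 12, at 0.54 with an SD of 0.34, against a median SD of 0.74 over the members. Its level was 505 and 488 CPM in the plasmid libraries and 703, 783 and 786 CPM in the cells, and guide 9 ended highest at 1.14. Zfp36l1 held 643 and 647 CPM in the plasmid libraries and 999, 1062 and 945 CPM in the cells. The change was present at day 5 in both (0.54 and 0.69). Zfp36 was at -0.06 at day 5 and 0.40 at day 12, and of these genes the edgeR call on Zfp36l2 alone was kept after GC correction (adjusted p = 0.0031, against 0.0591 for Zfp36l1 and 0.121 for Zfp36). The call on Zfp36l1 was also lost without plasmid library 1 (edgeR adjusted p = 0.0673) or 2 (0.0652), and that on Zfp36 without plasmid library 1 (0.0578), plasmid library 2 (0.103) or day 12 (0.397). That on Zfp36l2 was lost with a minimum of 100 plasmid reads (0.196).

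The list of silencers of imprints and retroelements held 3 members, with a median of 0.13 at day 12, of which 1 was called higher and 0 lower (all genes 34.7% and 25.2%). Besides Zfp57 these were Zfp445, another imprint protector named after its values were seen, at 0.13 (edgeR adjusted p = 0.834) and Zfp708, which binds a class of retrotransposon, at 0.20. Zfp708 was called higher (edgeR adjusted p = 0.0423), with a slope of 0.26 that turned to -0.40 when scaled on the controls. Zfp445 was called lower on the control scale (edgeR adjusted p = 0.0157), as were 64.6% of all genes. Of the 3 lineage and development members, Zfp219, a SOX9 partner in cartilage, and Zfp488, an oligodendrocyte factor, were called higher (0.72 and 0.39; edgeR adjusted p = 0.00129 and 0.0393), and 34.7% of all genes were so called. On the control scale Zfp219 had a slope of -0.0035 (adjusted p = 0.985), while Zfp488 (-0.32, adjusted p = 0.037) and Zfp423 (-0.44, adjusted p = 0.0144) were called lower. The call on Zfp708 was lost without plasmid library 1 (0.0578), plasmid library 2 (0.107) or day 12 (0.609), and that on Zfp488 without plasmid library 1 (0.144), plasmid library 2 (0.176) or day 8 (0.0665), by edgeR adjusted p. Zfp423, a BMP and EBF pathway factor, was at 0.44 at day 5, -0.06 at day 8 and -0.28 at day 12. Its summed reads did not follow that fall: their TMM slope was upward, 0.23 over 12 days, and was not called (edgeR adjusted p = 0.0975). The summed level of Zfp423 was 551 and 621 CPM in the plasmid libraries and 692, 640 and 686 CPM in the cells. Among the other members Zfp82 had the largest gain from day 5 to day 12, 0.63, with 520, 562 and 688 CPM in the cells against 535 and 558 CPM in the plasmid libraries (edgeR adjusted p = 0.067).

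Among genes listed as partners of KRAB zinc-finger proteins, which are not members, most of those in the library fell. Of 20 listed genes 12 were in the library, and Setdb1 was not among them. Of these 12, guides to 9 fell and to 1 were called higher (Hdac2, whose slope of 0.43 turned to -0.22 on the control scale). Over all genes 25.2% fell and 34.7% were called higher. The median of the 12 at day 12 was -0.74, beside 0.01 over all genes. Dnmt1 (-0.61) and Dnmt3a (-0.07) passed in neither direction (edgeR adjusted p = 0.2 and 0.909). The corepressor gene Trim28 was at -2.95 (SD 1.54, 10 of 10 guides below 0, edgeR adjusted p = 7.21e-05), below every member. The heterochromatin protein gene Cbx3 was at -2.57 (SD 2.53, 5 guides), the histone deacetylase gene Hdac1 at -1.82 and the remodeller gene Chd4 at -1.55. Each had all kept guides below 0. No test of the difference between this list and the members was made.

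Single guides to members had an SD of 0.90 at day 12, and the medians per member an SD of 0.45. Of the 1291 kept guides 231 were called lower (17.9%, beside 22.9% of all kept guides and 24% of guides to genes) and 178 higher (13.8%, beside 17.8% and 16.1%) in edgeR's guide-level test. The same test called 405 of 893 non-targeting guides higher (45.4%) and 43 lower (4.82%). With scaling on the controls, 566 member guides (43.8%) were called lower, beside 44% of all kept guides and 45.9% of guides to genes. On that scale 21 member guides (1.63%) were called higher, beside 3.22% and 2.82%, and of the control guides 114 (12.8%) were lower and 87 (9.74%) higher. Calls on single guides were thus made among guides with no target as well. Without plasmid library 1 the TMM counts of member guides were 105 lower and 96 higher, and without plasmid library 2 they were 130 and 99. No share over all kept guides is given for these settings, so the counts do not show how member guides differ from others.

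Zfp606 and Zfp454 had the widest spread over guides at day 12 and were singled out after their values were seen. Zfp606 (SD 2.35, 5 guides) fell, with a median of -0.48 (edgeR adjusted p = 0.026), a call kept in 7 of 12 other settings. It was lost without plasmid library 2 (0.0628), without day 12 (0.239), with no minimum of plasmid reads (0.28), with a minimum of 100 reads (0.156) and with cells set against plasmid (0.361). Its guide 1 went from 172 and 66 reads in the plasmid libraries to 9 reads at day 5 and 0 reads at days 8 and 12. With a floor of 3 reads that is at least 17.3-fold lower at day 8 and at least 15.1-fold lower at day 12. The other 4 guides lay between -1.34 and 0.04. Zfp454 (SD 1.83, 9 guides) had a median of -0.02 and was not called (edgeR adjusted p = 0.203), although its guide 1 fell from 524 and 241 reads to 71, 37 and 10 and its guide 9 went from 119 and 46 reads to 91, 118 and 146. These guides ended at -3.81 and 2.18, while 5 of the 9 lay between -0.11 and 0.52.

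Guides of 1 gene often share their target. Of the kept guides, 403 (31.2%) in 118 members share a run of at least 12 bases with another guide of the same gene, on either strand. The 252 overlapping pairs differed at day 12 by a median of 0.63 log2 units, and the 4736 other pairs within a member by 0.72. No test of that difference was made.

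Near-identical guides of different members were found on 2 chromosomes, and they are shown because such guides have nearly the same target in more than 1 member. There were 8 pairs with 1 or 2 mismatches among 7 members, every pair within 1 chromosome: Zfp51, Zfp229, Zfp677 and Zfp760 on chromosome 17 and Zfp457, Zfp458 and Zfp595 on chromosome 13. Capitals mark the mismatched bases.
Zfp229, first pair: ggctGtggacttctcccagg
Zfp760, first pair: ggctTtggacttctcccagg
Zfp457, second pair: ggcAatatatttctctgcag
Zfp458, second pair: ggcTatatatttctctgcag
Zfp51, last pair: tctgttgacattcAgggatg
Zfp760, last pair: tctgttgacattcGgggatg
The substitutions are G5T, A4T and A14G, counted from the 5′ end of the guide. All 6 guides shown were below the minimum of plasmid reads, so none of them entered a gene's value. In a pair not shown, a Zfp51 guide with 2 mismatches to a Zfp229 guide had 378 and 151 plasmid reads and was kept. The first pair had 27 and 2 plasmid reads for Zfp229 and 22 and 7 for Zfp760, and at days 5, 8 and 12 they had 0, 7 and 1 and 0, 5 and 3 reads. The last pair had 31 and 18 plasmid reads for Zfp51 and 43 and 26 for Zfp760, with 8, 10 and 10 and 13, 15 and 18 reads at days 5, 8 and 12. Of the 1510 member guides 13 had 3 mismatches to the nearest guide of another gene and 1485 had 4 or more. Among these 7 members Zfp457 alone was called by edgeR with TMM scaling, higher there and lower on the control scale. Other sites in the genome were not searched.

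Change followed the GC content of the guide. Kept member guides had a mean of 10.3 G or C bases in 20, other guides to genes 10.9 and non-targeting guides 11.1. Member guides with up to 6 such bases had a median change of -0.85 at day 12 (42 guides), those with 9 or 10 of -0.07 (453 guides) and those with 15 or more of 0.44 (22 guides). The slope was 0.135 log2 units per base over the 1291 member guides (Pearson correlation 0.31) and 0.125 per base over the 893 control guides (Pearson correlation 0.32). These are descriptions across guides, which share libraries and, within a gene, a target. The 23 members that fell had a median of 9.80 such bases per guide and the 34 called higher 11.3. After a GC correction fitted on the controls the member median at day 12 was 0.01 in place of -0.07, and edgeR called 16 members lower (10.6%, background 22.9%) and 34 higher (22.5%, background 25.4%). Of the 23 that fell, 14 were still called lower, and of the 34 called higher 21 were still called higher. The part of GC content in the remaining calls was not tested.

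The members are spread over 20 chromosomes, in unequal numbers; of all 151, 15.2% fell and 22.5% were called higher on the TMM scale (all genes 25.2% and 34.7%). The 39 members on chromosome 7 had a median of 0.05 at day 12, with 6 lower and 8 higher on the TMM scale. The 12 on chromosome 6 had a median of -0.35, with 4 lower and 1 higher, and the 10 on chromosome 11 a median of -0.16, again with 4 lower and 1 higher. The 7 on chromosome 8 had a median of 0.32, with 0 lower and 4 higher. None of these differences between chromosomes was tested, and the upward calls do not hold on the control scale.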

How the data were processed

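Guide counts came from 2 plasmid libraries and 1 ES cell library at each of days 5, 8 and 12. The authors deposited whole-number counts of reads for each guide, not normalised. The submitters' processing notes list cutadapt, Bowtie, featureCounts and the mm10 build, with no versions. Counts were fitted in edgeR 4.0.16 (R 4.3.3) with TMM factors over guides with at least 30 reads in both plasmid libraries. Day entered as a number, with the plasmid at 0. Changes used a pseudocount of 1 CPM. Slopes are given multiplied by 12 days. The gene test was tried on simulated counts for 1682 genes: it called 50 of 50 genes at each of log2 changes -2, -1, 1 and 2, and 4 of 1482 unchanged genes. The simulated counts had 1 dispersion for all genes and a trend linear in day, so they cannot show how often the test errs on these libraries. Of the 100 real control sets it called 93 higher with TMM scaling, and 10 higher and 9 lower with scaling on the controls. That second scale was set by the same guides that make up the sets. Alternatives covered scaling, guide filter, pseudocount, GC content, time coding, DESeq2 1.42.0 and each library left out.

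Both plasmid libraries were used as samples, since their counts differed beyond counting error (chi-square 2.21 per degree of freedom). P-values judge the slope over days against the spread of these 5 libraries around it, and reads are not separate cells. Members and lists were chosen with earlier results of these data known. Named genes were the 12 lowest and 8 highest called members with 1 sign at all days, the 3 lowest and 3 highest from day 5 to day 12, the lowest and highest of each list and the called list members, 31 in all. Protein features could not be computed, as no protein sequences were used here.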

Additional observations from a re-analysis of the deposited data

How the results depend on the processing

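No paired analysis was possible because each day had 1 library and the groups share fewer than 2 replicate numbers. Scaling on the non-targeting guides moved the median of all genes at day 12 by -0.60. With that scaling the gene test called 112 members lower and 0 higher (23 and 34 with TMM), also with control sets in the fit (112 and 0), and with GC content corrected too 102 and 0. The guide test then called 566 lower and 21 higher (231 and 178 with TMM). The member medians became -0.48, -0.59 and -0.66 at days 5, 8 and 12 and -0.18 from day 5 to 12, with 10, 13, 27 and 2 members past the loss of 1 log2 unit and 0 past the gain at day 12. Slopes turned below 0 for 30 of the 34 members called higher, among them, of the genes chosen by the naming rule, Zfp142 (-0.062), Zfp219 (-0.0035), Zfp239 (-0.057), Zfp319 (-0.082), Zfp36 (-0.36), Zfp366 (-0.032), Zfp488 (-0.32) and Zfp708 (-0.40). With GC content corrected too, they were -0.0033 for Zfp142, -0.28 for Zfp219, -0.21 for Zfp239, -0.11 for Zfp275, -0.14 for Zfp319, -0.44 for Zfp36, -0.025 for Zfp366, -0.29 for Zfp36l1, -0.10 for Zfp36l2, -0.33 for Zfp488, -0.024 for Zfp689 and -0.13 for Zfp708. The combined scaling and GC correction and the control sets were added after seeing the data. A minimum of 100 plasmid reads, which leaves fewer guides, gave 18 members higher, 82 guides lower and 54 higher, medians of -0.13, -0.084 and 0.030 at day 5, day 8 and from day 5 to 12, 9, 7 and 11 members past the loss at days 5, 8 and 12, 1 and 2 past the gain at days 8 and 12, and slopes of -0.21 for Zfp366 and 0.043 for Zfp426. No minimum gave a median of -0.027 and 2 losses at day 8. Cells against plasmid gave 13 members and 109 guides higher. The GC correction gave medians of -0.0015, -0.024 and 0.0070 at days 5, 8 and 12, 1 loss at day 5 and 0 gains at day 12. Means over guides gave -0.11, -0.11, -0.12 and 0.015 at days 5, 8 and 12 and from day 5 to 12, with 7 losses and 0 gains at day 12 and 3 losses from day 5 to 12. A pseudocount of 5 gave 0 gains at day 12 and 0 losses from day 5 to 12. DESeq2 size factors gave medians of -0.069 at day 5 and 0.014 from day 5 to 12. Leaving out 1 library at a time gave 10 to 30 members lower, 19 to 36 higher, 105 to 271 guides lower, 96 to 209 higher, and 0 gains at day 12. The DESeq2 Wald test called 27 members lower and 39 higher. Apart from the shares given in the results above, these counts of members and guides stand without the share over all genes in the same setting. They are therefore no measure of how members differ from other genes. The cause of these shifts was not tested, apart from the fewer guides and libraries named.

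With 1 library per day, a median of 47 to 53 reads per member guide in the cells and 3 residual degrees of freedom, differences between neighbouring days could not be tested.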
